A study of Mus musculus with 2 samples.

Results

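The DNA methylation machinery comprised 10 genes, listed by name: Dnmt1, Dnmt3a, Dnmt3b, Dnmt3l, Uhrf1, Tdg, Mbd1, Mbd2, Mbd3 and Mbd4. Each matched 1 of the 30774 identifiers on an Illumina mouse beadchip. The arrays held total RNA of mESCs of strain B6, a line of inner cell mass origin from E3.5 embryos, cultured in medium with serum. Cells were given LIF, the cytokine that activates Stat3, or LIF together with CHIR99021 (CHIR), a GSK3 inhibitor that activates Wnt/β-catenin signaling, and the labels give 12 h for the treatment. There was 1 array per condition, so both groups shared the serum, LIF and strain, and differed by CHIR. The dose of CHIR on the array was not given in the sources used here, and the study's methods describe 46C mESCs whereas the labels name B6 mESCs. With 2 arrays, no spread between cultures was measured and no difference was tested. CHIR and any other way in which the cultures differed cannot be told apart. Fewer cells that express a gene and less RNA per cell cannot be told apart either.

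DNA methylation in mammals is carried mainly by cytosines that precede guanine (CpG). Dnmt3a and Dnmt3b write the mark on unmethylated DNA, with Dnmt3l as a partner that has no catalytic activity of its own. Dnmt1 copies the mark to the new strand after replication, guided by Uhrf1, which recognizes DNA methylated on a single strand. Proteins with a methyl-CpG binding domain (Mbd) read the mark or sit in repressive complexes, and the glycosylases Tdg and Mbd4 remove mismatched thymine, with Tdg also removing oxidized forms of methylated cytosine. mESCs in serum are known for highly methylated genomes, and culture in 2i, which joins CHIR with a MEK inhibitor, is known for low methylation. No MEK inhibitor was part of this experiment, and methylation itself was not measured on these arrays.

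The state of both cultures was read from marker genes. Axin2, a feedback target of Wnt/β-catenin signaling, had a signal of 314.1 in LIF and 1178 in LIF plus CHIR, a log2 fold change of 1.91. Of 7 embryonic stem cell markers, 6 were detected on both arrays, and their values lay on both sides of 0. Pou5f1 had 12346 in LIF and 11309 in LIF plus CHIR (log2 fold change -0.13), whereas Nanog went from 1660 to 2429 (0.55), Esrrb from 10986 to 14053 (0.36) and Utf1 from 5585 to 3972 (-0.49). Sox2 had signals of 441.2 in LIF and 400.2 in LIF plus CHIR but missed the detection limit (detection p-values of 0.0503 and 0.276). It therefore cannot be called absent. All 5 fibroblast markers were undetected on both arrays, with a summed signal of 223.4 in LIF and 226.2 with CHIR. Nearly all of that sum was Thy1, at 222.3 and 225.3. Thy1 missed the detection limit (detection p-values of 0.354 and 0.302), so its absence cannot be read from the call. Also undetected on both arrays were 3 of 4 primitive endoderm markers and 2 of 4 trophoblast markers. The exceptions, each detected on both arrays, were Sox7 (45.9 in LIF and 59.0 in LIF plus CHIR), Krt7 (57.3 and 54.5) and Tcfap2c (3175 and 3329). Sox7 and Krt7 were thus dim, whereas Tcfap2c was brighter than Nanog. Signals were background-subtracted and had medians of 10.5 (LIF) and 10.4 (LIF plus CHIR), so a value near or below 0 lies in the background. Detection means a detection p-value, which compares a signal with the negative control beads, under 0.01.

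Promoters of the members that lay at the ends of the observed range are shown first, with the CpG sites at which the mark can be placed. Dnmt3b had the largest lower value with CHIR, Mbd4 the largest higher value, and Dnmt3l is the partner of Dnmt3b. The 250 bases before the start site are given from RefSeq (GRCm38.p6), with each CpG in capitals. They lie at chr2:153649199-153649448 on the plus strand for Dnmt3b and chr6:115853342-115853591 on the minus strand for Mbd4. Those of Dnmt3l lie at chr10:78042037-78042286 on the plus strand, before the first of its start sites. The array annotation ties the Dnmt3l entry to transcript variant 2, and which start site its RNA came from was not tested.

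Dnmt3b: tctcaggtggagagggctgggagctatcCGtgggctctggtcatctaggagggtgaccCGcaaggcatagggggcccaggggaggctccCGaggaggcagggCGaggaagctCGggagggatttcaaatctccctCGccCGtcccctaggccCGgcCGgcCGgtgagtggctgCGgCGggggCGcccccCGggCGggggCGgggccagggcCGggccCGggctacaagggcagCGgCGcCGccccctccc
Dnmt3l: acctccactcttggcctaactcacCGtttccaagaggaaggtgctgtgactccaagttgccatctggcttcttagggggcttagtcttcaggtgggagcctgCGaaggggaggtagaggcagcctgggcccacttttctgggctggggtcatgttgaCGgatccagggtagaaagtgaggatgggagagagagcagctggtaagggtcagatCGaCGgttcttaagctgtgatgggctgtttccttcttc
Mbd4: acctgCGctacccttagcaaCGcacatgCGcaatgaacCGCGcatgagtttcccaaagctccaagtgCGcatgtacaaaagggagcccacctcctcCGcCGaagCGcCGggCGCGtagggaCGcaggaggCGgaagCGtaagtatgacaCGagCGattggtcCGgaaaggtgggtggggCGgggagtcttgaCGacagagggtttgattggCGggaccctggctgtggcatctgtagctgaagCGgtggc

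These stretches held 21 CpG for Dnmt3b, 22 for Mbd4 and 5 for Dnmt3l. RefSeq windows of 300 bases ran from 250 before to 50 after a start site. They were matched for 8 of the members, all but Mbd1 and Mbd2 (15 windows, of which those of neighbouring starts can overlap). Their median number of CpG was 22, and the median over 32851 windows of all genes was 7. The windows of Dnmt3a held up to 47 CpG and those of Dnmt3l between 3 and 6, so the members differed widely among themselves. The core motif of TCF factors, CTTTGA on either strand, was in 1 of the 15 windows, a Dnmt1 window, and in 5257 of all windows. The motif TTCNNNGAA is bound by Stat factors and is the same on both strands. It was in 2 of the 15 (13.3%), a Dnmt3l and a Tdg window, and in 2726 of all (8.30%). A match is a description of the letters only.

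Of the 10 members, 6 were detected on both arrays (Dnmt1, Dnmt3b, Dnmt3l, Mbd1, Mbd3 and Mbd4), and the other four were detected on neither. The signal of none of the 6 differed by 1.5-fold or more. Over all 9615 identifiers detected on at least 1 array, 4.11% were at least 1.5-fold higher with CHIR and 4.02% at least 1.5-fold lower. Among the 3269 whose brighter signal was 1000 or more, as for Dnmt1, Dnmt3b, Dnmt3l and Mbd3, these shares were 1.19% and 1.01%. With so few members, a count of 0 is near what the background share gives. The median log2 fold change of the 6 was -0.058, and that of all detected identifiers was 0.00089. Values were above 0 for Mbd1 and Mbd4, and below 0 for Dnmt1, Dnmt3b, Dnmt3l and Mbd3.

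**Figure D1:**
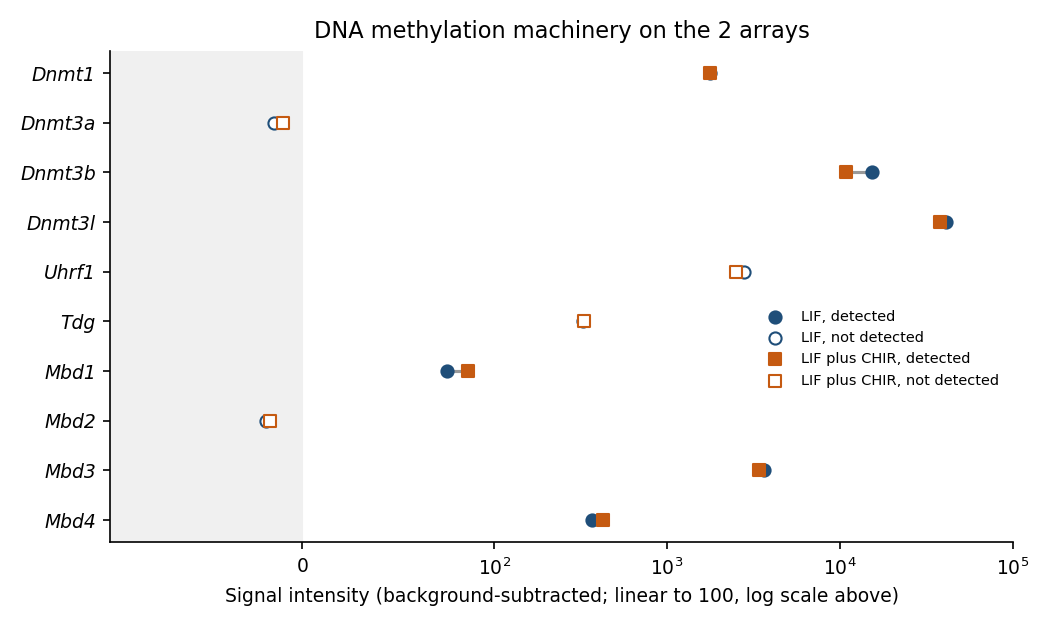
Signal intensity of each member on the LIF array (circles) and the LIF plus CHIR array (squares), filled where detected and open where not, on an axis that is linear to 100 and logarithmic above, with the range below 0 shaded. The widest gap on the log part of the axis is that of Dnmt3b, from 15438 to 10869.8, and Dnmt3a and Mbd2 lie below 0 on both arrays.

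Among the methyltransferases, Dnmt3b stood out by its difference. Dnmt3b (Entrez gene 13436, chromosome 2, band 2qH1) had a signal of 15438 in LIF and 10869.8 in LIF plus CHIR. The signal with CHIR was thus 1.42-fold lower, and the log2 fold change was -0.51. This lay inside the 1.5-fold limit. A lower signal of at least this size was seen for 54 of the 3269 identifiers of that brightness (1.65%), and a difference of this size in either direction for 109 (3.33%). The median absolute log2 fold change of those identifiers was 0.10. Both signals of Dnmt3b lay near the top of their arrays, and its percentile among all identifiers was 99.1 without CHIR and 98.6 with it. The array annotation ties the entry to transcript variant 4, and the files do not show which splice forms the bead sequence reports.

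Dnmt3l (Entrez gene 54427, chromosome 10, band 10qC1) was the partner with the smaller difference. It gave 41020.1 in LIF and 38016 with CHIR added, 1.08-fold lower, with a log2 fold change of -0.11. Of the identifiers of that brightness, 23.5% had a lower signal by at least this much, so the value lay in the common range. The highest signals of any identifier were 57706 in LIF and 57868 with CHIR.

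Dnmt1, the maintenance enzyme (Entrez gene 13433, chromosome 9, band 9qA3), gave nearly the same signal on both arrays. It had 1773 in LIF and 1762 in LIF plus CHIR, a log2 fold change of -0.0092. A difference of at least this size was present in 94.6% of identifiers with a brighter signal of 1000 or more. Uhrf1, its guide (Entrez gene 18140, chromosome 17, band 17qD), had signals of 2792 in LIF and 2522 in LIF plus CHIR, far above the median of the arrays, yet its detection p-values were 0.102 and 0.171. These p-values were not multiples of 1 over 936, the apparent number of negative controls, so the entry was taken to combine several probes, as were all 260 identifiers that had a signal of 1000 or more on both arrays and were detected on neither. They made up 7.80% of the 3335 identifiers with such signals. Uhrf1 therefore has no fold change under the detection rule. Its plain signal ratio was 0.903, a log2 value of -0.15, and which of its probes carried the signal cannot be read from the files.

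Dnmt3a, the other writer enzyme, gave no signal above background. Its values were -14.9 in LIF and -10.2 in LIF plus CHIR, with detection p-values of 0.994 and 0.888. The entry comes from a Riken transcript and carries no Entrez number, chromosome or description, and no other identifier with the Entrez number or name of Dnmt3a was found. The array thus gives no level for Dnmt3a in either condition.

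**Figure D2:**
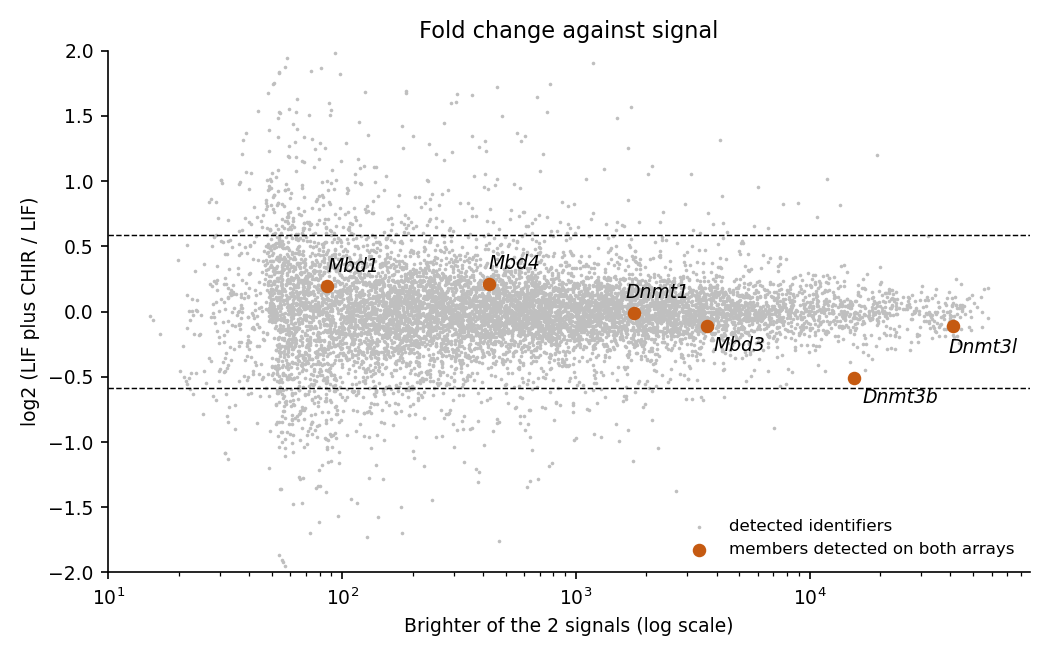
Log2 fold change of LIF plus CHIR over LIF (vertical) against the brighter of the 2 signals (horizontal, log scale) for identifiers detected on at least 1 array (grey) and the 6 detected members (orange), with dashed lines at 1.5-fold and 32 identifiers beyond the plotted range. Dnmt3b at -0.51 lies at the lower edge of the narrow band of bright identifiers, whereas the other members lie within the cloud.

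The readers of the mark differed mainly in whether they were measured at all. Mbd3, a subunit of the NuRD repressor complex that binds methylated CpG weakly in mammals (Entrez gene 17192, chromosome 10, band 10qC1), had a signal of 3650.3 in LIF and 3389.96 in LIF plus CHIR. This was 1.08-fold lower with CHIR, a log2 fold change of -0.11, a size equalled or passed in the same direction by 23.9% of identifiers of that brightness. Mbd1, which recruits repressors to methylated DNA, was close to background, with 75.5 in LIF and 86.3 with CHIR added. The Mbd1 entry, like that of Dnmt3a, comes from a Riken transcript and carries no Entrez number or chromosome. Its detection p-values were 0.0049 and 0.0019. Its log2 fold change was 0.19. Of 1825 identifiers that stayed under 100 on both arrays, 64.5% differed by at least this much, so Mbd1 was well within the scatter of dim entries. Mbd2, the strongly methyl-CpG binding relative of Mbd3 (Entrez gene 17191, chromosome 18, band 18qE2), had -19.0 in LIF and -16.6 in LIF plus CHIR, with detection p-values of 0.988 and 0.952. It was not detected in either condition, and its entry had p-values of the form that a single probe gives.

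Of the glycosylases, Mbd4 was detected and Tdg was not. Mbd4 (Entrez gene 17193, chromosome 6, band 6qE3) had 366 in LIF and 424.1 with CHIR added, 1.16-fold higher, with a log2 fold change of 0.21. Among the 4521 identifiers with a brighter signal between 100 and 1000, 18.9% were higher by at least as much. Tdg (Entrez gene 21665, chromosome 10, band 10qC1) had 324.5 in LIF and 331.2 in LIF plus CHIR, with detection p-values of 0.357 and 0.27. Like Uhrf1 it appeared to combine several probes and was not called detected. Its plain signal ratio was 1.02, a log2 value of 0.030. RefSeq lists copies of Tdg elsewhere in the mouse genome (Tdg-ps and Tdg-ps2), and whether the probes report them too was not tested.

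Of the 11 alternatives run, 4 change the members' fold changes (quantile normalization, scaling to equal medians and both normexp background corrections), and the other ones leave them as they were by construction. The direction of the 6 fold changes was kept under these 4, and the plot of the alternatives shows how far each moved. Dnmt3b ranged from -0.53 to -0.49 and did not reach the 1.5-fold limit under any of the 4. How far the dimmer members moved depended on how the background correction was fitted. With normexp fitted on all identifiers, Mbd1 went from 0.19 to 0.0074 and Mbd4 from 0.21 to 0.057. The background SD of that fit (588.4 in LIF, 585.75 in LIF plus CHIR) exceeded the signals of both. With normexp fitted on 1-probe identifiers, Mbd1 was at 0.16 and Mbd4 at 0.20.

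**Figure D3:**
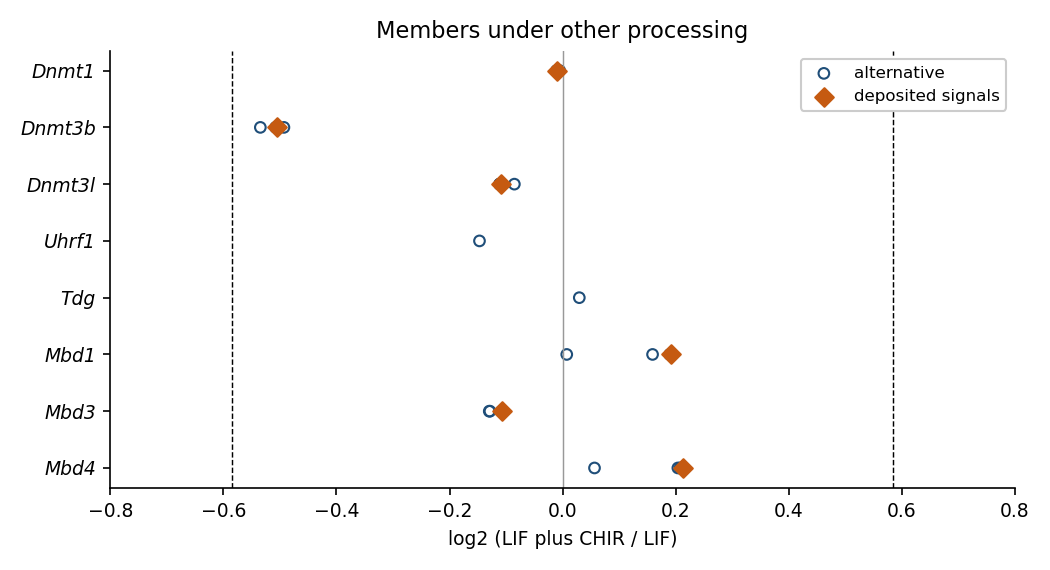
Log2 fold change of LIF plus CHIR over LIF for each member with the deposited signals (diamonds) and under each alternative (circles), with dashed lines at 1.5-fold. Dnmt3b stays between -0.53 and -0.49. Uhrf1 (-0.15) and Tdg (0.030), not detected, are each shown as 1 circle at the plain signal ratio, which detection by signal also gives.

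Other genes of the pathway were taken from 6 lists of partners, erasers and targets, 83 genes in all. Of these, 78 were matched to the array and 41 were detected on at least 1 array. Ehmt1 was at least 1.5-fold lower with CHIR, Mbd6 passed the limit as higher, and the remaining 39 did not pass. Mbd6 was detected with CHIR alone, and both its signals lay below the lowest detected ones of 1-probe identifiers. Of the 9615 identifiers detected on 1 array or both, 4.11% passed the limit as higher and 4.02% as lower. With 41 genes, 1 call in each direction is thus near what these shares give. Neither Ehmt1 nor Mbd6 passed under either normexp fit. The median log2 fold change of the 41 was -0.038.

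Of 22 genes for active demethylation and base excision repair, 21 were matched to the array, 14 were detected and none passed 1.5-fold. They ranged from Apobec3, a cytidine deaminase, at -0.39 (266.3 in LIF and 203.9 in LIF plus CHIR) to Neil1, a glycosylase, at 0.31 (62.3 and 77.3). Parp1, which signals DNA breaks, had 9483 in LIF and 9986 in LIF plus CHIR. The Tet enzymes, which oxidize methylated cytosine and were singled out after their values were seen, were present under older names. Tet1 had 9901 in LIF and 7987 with CHIR added, 1.24-fold lower, with a log2 fold change of -0.31. Tet2 had 363.6 and 370.3, and Tet3 was not detected on either array.

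Of 11 other proteins that bind methyl-CpG or hold the related domain, 5 were detected on at least 1 array. All 5 had values above 0, as did 50.2% of all detected identifiers, and their median was 0.22, beside 0.00089 over all identifiers. Of the 4 detected on both arrays, Setdb1, a histone H3 methyltransferase, had the lowest value, 0.029, with 2166 in LIF and 2211 in LIF plus CHIR. Mbd6 was detected with CHIR alone, and its signals of 23.6 in LIF and 36.3 in LIF plus CHIR lay below the lowest detected signals of identifiers with 1 probe (51.9 and 47.1), so no fold is given.

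The NuRD complex, in which Mbd2 and Mbd3 are alternative subunits, had 12 genes on its list, of which 9 were matched to the array. Of these, 7 were detected on both arrays and none passed 1.5-fold. The lowest was Mta3 at -0.43, with 3065 without and 2269 with CHIR, and the highest was the histone-binding Rbbp7 at 0.35, with 4163 and 5305. The values of the subunits thus lay on both sides of 0, with a median of -0.15.

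Of 19 genes that target or maintain methylation, 18 were matched to the array and 9 were detected on both arrays. Of these 9, 8 had values below 0, and the median of the 9 was -0.12. Of all identifiers detected on both arrays, 50.7% had values below 0, and with 1 array per condition the count for the list was not tested. Ehmt1, a histone H3 methyltransferase, had 109.8 in LIF and 71.9 with CHIR added, 1.53-fold lower, with a log2 fold change of -0.61. The LIF plus CHIR value had a detection p-value of 0.0091, just inside the limit, so the size of the difference rests on a signal near background. It was within the 1.5-fold limit under both normexp fits, at -0.52 when fitted on 1-probe identifiers and -0.035 when fitted on all. Trim28, a corepressor that protects methylation at imprinted loci, had 41149 in LIF and 36276 in LIF plus CHIR (-0.18). The sole value above 0 was that of Usp7, a deubiquitinase that binds Dnmt1 and Uhrf1, at 0.014.

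The supply of the methyl donor S-adenosylmethionine gave 5 detected genes of 8, from Mtr at -0.21 (428.2 in LIF and 370.3 in LIF plus CHIR) to Ahcy at 0.18 (1183 and 1344). Mat2a, which makes the donor, had 7743 and 7351. Of all 30774 identifiers, 9615 were detected on at least 1 array, so a lack of detection was common. Of 11 germline genes whose promoters are methylated in somatic cells, 10 were undetected on both arrays. The exception was Taf7l, with 111.8 in LIF and 85.9 in LIF plus CHIR, a log2 fold change of -0.38. Both signals were dim. Detected identifiers with a brighter signal between 100 and 1000 had a median absolute log2 fold change of 0.16.

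**Figure D4:**
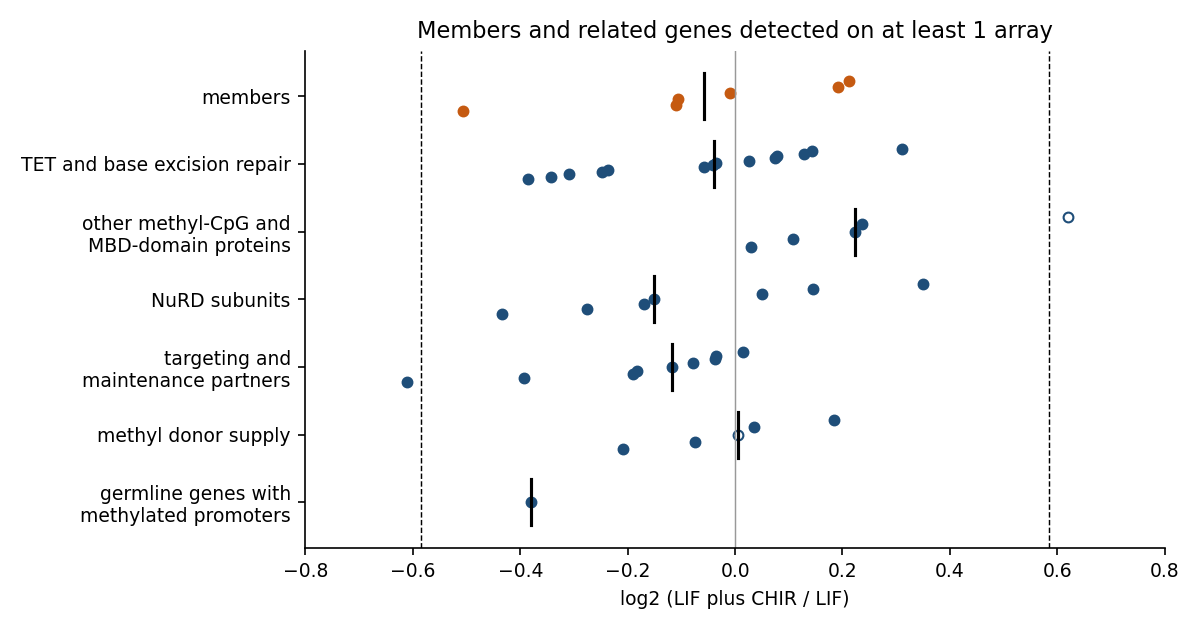
Log2 fold change of LIF plus CHIR over LIF for the members (orange) and the genes of 6 related lists (blue), filled where detected on both arrays and open where detected on 1, with a bar at each list's median and dashed lines at 1.5-fold. Ehmt1 (-0.61) and Mbd6 lie beyond the lines, and Dnmt3b (-0.51) is the lowest member.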

How the data were processed

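The authors deposited background-subtracted signal intensity on a linear scale, 1 value per identifier and array, and a detection p-value for each deposited signal. The software and the genome build are not given in the sources used here. A shorter table of 11702 identifiers, those with a p-value under 0.05 on at least 1 array, is named as normalized and the full table used here as non-normalized, yet their values were the same (0 differed), so whether the signals are normalized is not known. No array was left unused.

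For each identifier, the signal in LIF plus CHIR was divided by that in LIF and the log2 taken (Python 3.11.15 with numpy 2.4.6 and pandas 2.3.3; figures with matplotlib 3.10.9). Identifiers detected at a p-value under 0.01 on 1 array or both were used, and signals under the lowest detected signal of their array (15.1 in LIF, 14.8 in LIF plus CHIR) were raised to it. Values are called by identifier at 1.5-fold. The calculation was tested on simulated data. Differences were not tested because there was 1 array per condition, and the number of arrays limits the precision.

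Of 116 list entries, 106 were matched by identifier, 3 by Entrez gene number and 2 by a synonym in the RefSeq table of GRCm38.p6, and 5 were not matched. All members were named in full. From each list, the genes detected on both arrays that passed 1.5-fold were named. Where none did, those with the highest and lowest value among genes detected on both arrays were named. The gene with the highest signal was named as well. An item that this rule names is not reported here. Members and lists were chosen with earlier results of these data known. Alternatives were quantile normalization, scaling to equal medians, normexp correction (limma 3.58.1 in R 4.3.3, offset 16), other detection rules and minimum signals, the shorter table and a 2-fold limit.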

Additional observations from a re-analysis of the deposited data

How the results depend on the processing

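No paired analysis was possible because there was a single array for each treatment, and neither could be left out. Of the 11 alternatives, 7 could not move a fold change of the 6 detected members (the detection and minimum-signal rules, the shorter table and the 2-fold limit), so they say nothing about its stability. Under the other 4, no member was 1.5-fold higher or lower, and the median of the members stayed between -0.059 and -0.048. Detection by signal (at least the lowest 1-probe signal above all negative controls, 75.5 in LIF and 70.7 in LIF plus CHIR), chosen after seeing the data, gave 8 members a value, adding Uhrf1 at -0.15 and Tdg at 0.030. The number of pathway genes past the limit went from 2 to 3 at a detection p-value under 0.05. It was 1 with detection on both arrays, with the minimum signal of 1-probe identifiers and with detection by signal, all of which kept Ehmt1 alone, and 0 under both normexp fits and at a limit of 2-fold. Over all identifiers, the higher count went from 395 to 59 and the lower from 387 to 47 with normexp fitted on all identifiers, whose fitted background SD was 588.4 in LIF, against 15.7 when fitted on 1-probe identifiers. The second fit gave 270 and 258. A detection p-value under 0.05 gave 682 and 684, detection on both arrays 203 and 227, the 1-probe minimum 247 and 273, the 2-fold limit 129 and 85, and detection by signal 209 and 213. Signal over background limits Mbd1 most, and Dnmt3a and Mbd2 have no value under any setting.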

Other observations

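Other identifiers whose annotation names these enzymes were looked up after the values were seen. Dmap1, which encodes a protein that binds Dnmt1, had a signal of 2131 in LIF and 2195 in LIF plus CHIR, a log2 fold change of 0.043. Trdmt1, once named Dnmt2 and now known to methylate tRNA, had 41.3 and 36.1 and was detected on neither array at 0.01. LOC434200, annotated on chromosome 7 as similar to thymine DNA glycosylase, had 330.2 in LIF and 306.3 in LIF plus CHIR, detected on both, with a log2 fold change of -0.11. Its sign was opposite to the plain ratio of Tdg (0.030), and whether its probe also reports Tdg was not tested.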
